A study of Mus musculus with 8 samples.

Results

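The genes described here encode the subunits of the mitochondrial respiratory chain and ATP synthase that are carried by the nuclear genome. They were taken by symbol from a table of protein-coding genes in mouse liver: every gene named Nduf followed by a, b, c, s or v and a number, the Sdh genes a to d, and every symbol starting with Uqcr, Cox4 to Cox8 or Atp5. This gave 85 of the 22565 listed genes. Grouped by symbol, 37 fell to complex I, 4 to complex II, 8 to complex III, 18 to complex IV and 18 to complex V. This grouping includes 5 matches that are no subunits, and it keeps Ndufa4, now counted as a subunit of complex IV, under complex I. Livers of male C57BL/6J mice given dexamethasone were compared with livers of male C57BL/6J mice given saline as vehicle, with 4 libraries in each group. Dexamethasone is a synthetic glucocorticoid. It was injected into the peritoneum at 1.0 mg/kg body weight each day for 14 days, starting from mice bought at 10 weeks of age. The libraries are called dexamethasone 1 to 4 and vehicle 1 to 4 below, and the labels do not say whether each came from 1 mouse, so the spread between libraries may be in part technical.

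Complexes I and II feed electrons from NADH and succinate into the coenzyme Q pool, complex III passes them to cytochrome c, and complex IV hands them to oxygen. Complexes I, III and IV pump protons, and complex V, the ATP synthase, lets them flow back to make ATP. Most subunits are encoded in the nucleus and imported, a few are encoded by mitochondrial DNA, and hepatocytes, which are rich in mitochondria, use the chain for ATP and for the oxidation of fat. Transcription of the nuclear genes is known to rest on factors such as NRF1, GABP, YY1 and the estrogen-related receptors, with coactivators of the PGC-1 family.

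Depth was low, the smallest library (dexamethasone 4) holding 1361294 fragments assigned to listed genes and the deepest (vehicle 3) 3360092, and a median subunit gene had 21 (dexamethasone 4) to 102.5 (vehicle 3) fragments. A single gene, Lars2, took 28.4 to 51.1% of these fragments with dexamethasone and 14.5 to 25.3% with vehicle. The median gene had a log2 fold change of -0.28 (dexamethasone minus vehicle) in the deposited values over the 10221 genes tested, and of -0.00 once each library was divided by its median ratio to the mean library. Fold changes are given on the log2(FPKM + 1) scale as deposited and, where it matters, after this scaling. FPKM counts fragments relative to transcript length and library size. Summed FPKM of 7 hepatocyte markers, albumin among them, was 8936 to 16400 with dexamethasone and 15380 to 21970 with vehicle, a sum made up mostly of albumin. Gene by gene, 4 of the 7 had positive log2 fold changes and 3 negative, with a median of 0.13. As deposited 1 was called higher (Tat) and 0 lower, against 1.37% and 7.85% of all genes. After scaling 3 were higher and 0 lower, against 3.3% and 3.03%. Of 6 Kupffer cell markers tested 0 were called before or after scaling. Of 5 sinusoidal endothelium markers 1 was higher and 1 lower as deposited, and 1 higher and 0 lower after scaling. Of 4 skeletal muscle markers, Ckm and Myh4 were listed at 0 in all 8 libraries, and the sum of the list reached at most 0.148 FPKM with dexamethasone and 0.357 FPKM with vehicle. The part of cell make-up in the results was not tested. In bulk tissue, fewer cells of a type and less RNA per cell cannot be told apart.

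As deposited, the subunit genes had a median close to that of all genes tested, -0.28. Their median log2 fold change was -0.29, with quartiles of -0.47 and -0.15 and a full range from -1.27 for Ndufc1 to 0.36 for Atp5d. No subunit gene passed the test in either direction: 0 of 74 tested were higher and 0 lower with dexamethasone (limma on all genes, Benjamini-Hochberg adjusted p under 0.05). Over all genes tested, 1.37% were called higher and 7.85% lower, 9.22% in all. At an unadjusted p under 0.05, 0 of the 74 genes were higher and 11 lower, 10 of them subunits in the strict sense, against 3.18% and 24.2% of all genes. These 11 were Ndufc1, Ndufa7, Ndufa9, Ndufa6, Ndufb5, Ndufs1, Sdha, Cox6c, Atp5f1, Atp5j and Atp5sl. The 4 dexamethasone libraries lay below all 4 vehicle libraries for 3 of the 74 genes and above them for 0, against 16.2% and 2.18% of all genes.

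After scaling, the median of the subunit genes was 0.08, with 44 above 0 and 30 below, and the sign of 34 of the 74 differed from the deposited values. A single gene, Atp5d, passed the test as higher and 0 passed as lower, against 3.3% and 3.03% of all genes, 6.33% in all. At an unadjusted p under 0.05, 6 were higher and 0 lower, against 9.92% and 10.3% of all genes. The groups did not overlap for 3 genes, all higher with dexamethasone (Atp5d, Uqcrc1 and Cox8a), and for 7.31% of all genes in that direction and 7.11% in the other.

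The 95% confidence interval of the log2 fold change stayed between -1 and 1, less than a change of 2-fold, for 49 of 74 genes as deposited and for 63 after scaling. The median distance from a fold change to its interval's bound was 0.55 as deposited and 0.46 after scaling. These intervals are per gene and not adjusted for the number of genes tested, so they set no limit of detection for the calls. Ndufc1, for one, did not pass as deposited at a log2 fold change of -1.27. Fold changes spread less among the subunit genes (SD 0.28) than over all genes tested (SD 0.49), and likewise after scaling (0.29 against 0.48). All genes tested ranged from -8.40 to 7.21 as deposited, and the spread of genes of like level was not compared. Of the 74 genes, 60 were in the top of 5 equal bins of all genes by level, where 19.2% of genes were called in either direction as deposited and 14.4% after scaling. In that bin the median log2 fold change as deposited was -0.38 over all its genes and -0.26 over the 60 subunit genes. After scaling these medians were 0.00 and 0.12. This split by level was added after the values had been seen.

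**Figure D1:**
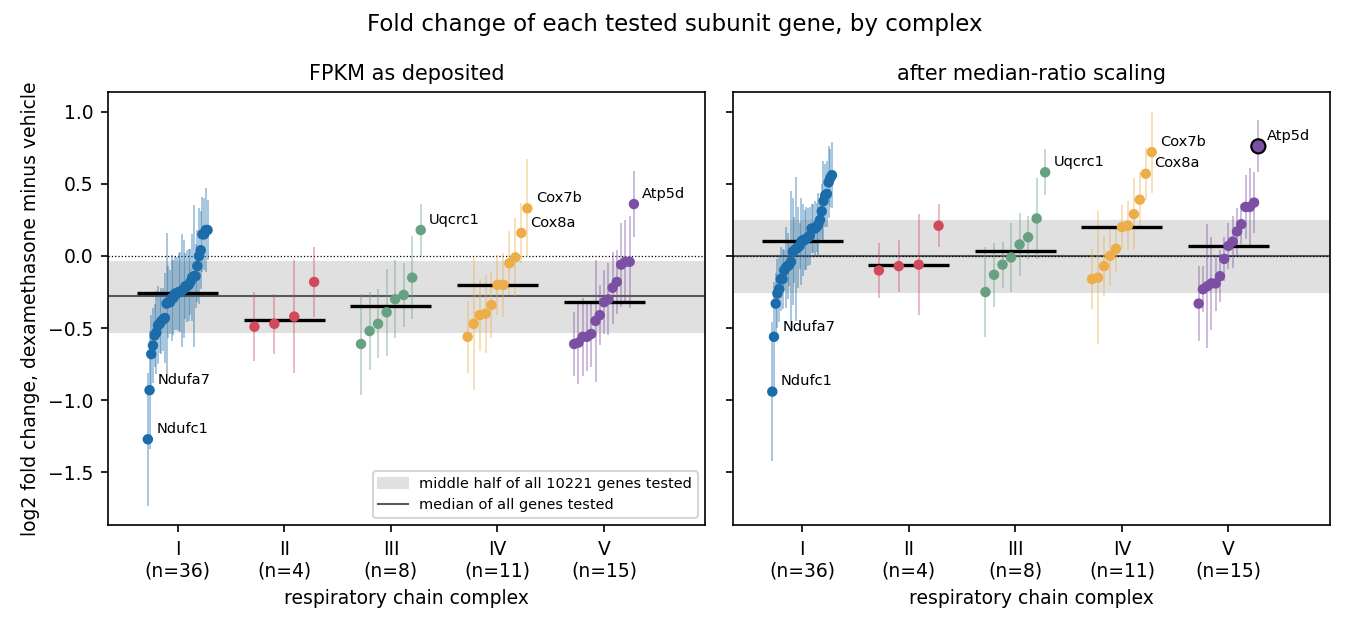
Log2 fold change (dexamethasone minus vehicle, log2(FPKM + 1) scale) of each tested subunit gene, by complex, as deposited on the left and after median-ratio scaling on the right. Points are genes with bars of 1 SE, black lines are the medians of the complexes, and the grey band runs from the lower to the upper quartile of all 10221 genes tested; the complex medians lie inside the band in both panels, and the outlined point, Atp5d at 0.76, is the call after scaling.

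Complex I oxidises NADH. Of its 37 genes 36 were tested, 0 passed in either direction before or after scaling, and their median was -0.26 as deposited and 0.11 after scaling. Among the core subunits, Ndufs1 carries several of the iron-sulfur clusters and Ndufv1 holds the flavin that takes electrons from NADH.
Ndufs1 had 7.87, 9.70, 8.59 and 6.59 FPKM with dexamethasone, against 12.5, 13.5, 10.9 and 9.96 FPKM with vehicle. Every dexamethasone library lay below every vehicle library. Its log2 fold change was -0.47 (SE 0.20, limma adjusted p = 0.15) as deposited and -0.10 (adjusted p = 0.77) after scaling, where the groups overlapped.
Ndufv1 averaged 18.9 ± 6.68 FPKM with dexamethasone and 21.3 ± 3.698 FPKM with vehicle (SD, n = 4 each), a log2 fold change of -0.20 (95% interval -0.74 to 0.33). The groups overlapped for Ndufv1.

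The lowest fold change of the whole chain belonged to Ndufc1, a small accessory subunit of the membrane arm. Its FPKM was 6.38, 4.202, 2.80 and 2.66 with dexamethasone, against 3.84, 6.77, 28.7 and 15.3 with vehicle. The vehicle libraries spread widely, vehicle 3 and 4 being high, vehicle 2 just above the dexamethasone libraries and vehicle 1 inside their range. Dexamethasone minus vehicle, the log2 difference was -1.27 (SE 0.46, limma adjusted p = 0.097) as deposited and -0.94 (adjusted p = 0.31) after scaling. Without vehicle 1, Ndufc1 passed the test as deposited (-1.70, adjusted p = 0.03), the 1 subunit gene lower in that fit, where 4.14% of all genes were lower.
The fragments assigned to Ndufc1 were few, about 20, 20, 15 and 8 with dexamethasone and 16, 19, 47 and 27 with vehicle. Fitted on the scaled fragment counts with the same scaling between libraries, a comparison chosen after seeing the data, Ndufc1 had a log2 fold change of -0.01 (SE 0.31). It was the 1 tested subunit gene for which FPKM and fragment counts differed by more than 0.5 on the log2 scale, against 8.76% of all genes tested.

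The gene of highest level under the complex I symbols was Ndufa4, which is now counted as a subunit of complex IV. Ndufa4 had 85.9, 86.0, 92.3 and 47.0 FPKM with dexamethasone, against 101.4, 78.5, 81.5 and 90.0 FPKM with vehicle. Dexamethasone 4 stood below the other 7 libraries, and dexamethasone 1 to 3 lay inside the vehicle range. The log2 fold change was -0.21 as deposited and 0.20 after scaling.
Ndufb8, an accessory subunit whose protein is often used as a readout of assembled complex I, had 19.2, 17.8, 16.6 and 6.63 FPKM with dexamethasone, against 13.6, 11.6, 10.6 and 13.6 FPKM with vehicle. Dexamethasone 1 to 3 lay above every vehicle library and dexamethasone 4 below them all. Its log2 fold change was 0.18 (limma adjusted p = 0.72) as deposited and 0.56 (adjusted p = 0.20) after scaling, and it passed after scaling without dexamethasone 4 (0.77, adjusted p = 0.03), a fit in which 3.05% of all genes were higher and 2.84% lower.
Among the other accessory subunits, Ndufb5 was the second complex I gene whose groups did not overlap as deposited, at 11.4, 10.95, 11.9 and 12.9 FPKM with dexamethasone against 23.8, 13.4, 21.2 and 14.2 FPKM with vehicle (log2 fold change -0.55, limma adjusted p = 0.14). After scaling its groups overlapped, at a log2 fold change of -0.16.

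**Figure D2:**
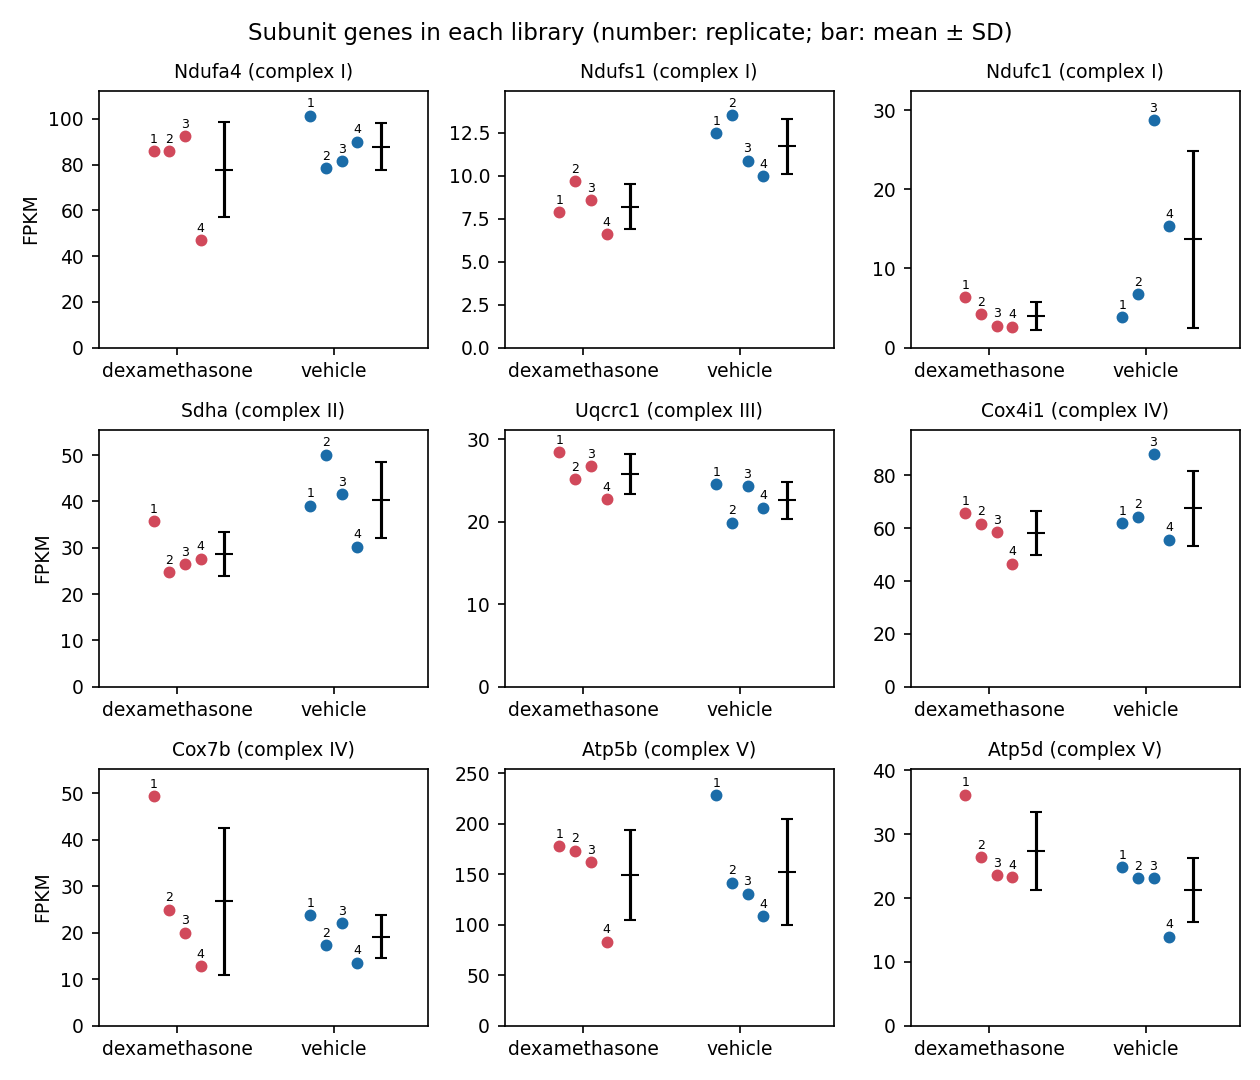
FPKM of 9 subunit genes in each library, dexamethasone in red and vehicle in blue, with replicate numbers above the points and the mean ± SD of each group (n = 4) beside them. The groups overlap for all but Ndufs1; dexamethasone 4 is the lowest library for Ndufa4 (47.0) and Atp5b (83.2), and Ndufc1 spreads from 3.84 to 28.7 within the vehicle group.

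Complex II, which is also the succinate dehydrogenase of the citric acid cycle, has all its subunits encoded in the nucleus. All 4 genes were tested and 0 passed, with a median of -0.44 as deposited and -0.06 after scaling.
Sdha, the flavoprotein that oxidises succinate, had 35.7, 24.7, 26.5 and 27.7 FPKM with dexamethasone, against 39.1, 50.1, 41.6 and 30.3 FPKM with vehicle. The groups overlapped through dexamethasone 1 and vehicle 4. Its log2 fold change was -0.47 (SE 0.21, limma adjusted p = 0.17) as deposited and -0.07 (95% interval -0.47 to 0.34) after scaling.
Sdhb, the iron-sulfur subunit, averaged 17.9 ± 4.97 FPKM with dexamethasone and 20 ± 3.28 FPKM with vehicle (SD, n = 4 each; log2 fold change -0.18). Sdhc and Sdhd anchor the enzyme in the membrane. For Sdhc the log2 fold change was -0.42 (95% interval -1.27 to 0.43). Sdhd had 17.7, 17.8, 18.1 and 8.89 FPKM with dexamethasone, against 23.9, 17.5, 23.0 and 22.2 FPKM with vehicle (log2 fold change -0.49, -0.10 after scaling). Dexamethasone 1 to 3 were close together and just above vehicle 2, the lowest vehicle library.

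Complex III passes electrons from coenzyme Q to cytochrome c. All 8 genes were tested and 0 passed before or after scaling, with medians of -0.35 and 0.04.
Uqcrc1, a core protein on the matrix side, had 28.4, 25.1, 26.7 and 22.7 FPKM with dexamethasone, against 24.5, 19.9, 24.3 and 21.7 FPKM with vehicle. The ranges overlapped as deposited and were apart after scaling, with dexamethasone higher. Dexamethasone minus vehicle, the log2 difference was 0.18 (SE 0.18, limma adjusted p = 0.55) as deposited and 0.58 (SE 0.16, adjusted p = 0.057) after scaling.
Under quantile normalization Uqcrc1 passed the test (log2 fold change 0.57, limma adjusted p = 0.046), as it did on scaled fragment counts (0.53, adjusted p = 0.032) and after scaling without dexamethasone 2 (0.67, adjusted p = 0.047). Of all genes, 3.28%, 5.26% and 2.68% were higher in these fits, and 2.36% lower in the last. Uqcrfs1, the Rieske iron-sulfur protein, averaged 15.6 ± 4.91 FPKM with dexamethasone and 18.9 ± 3.82 FPKM with vehicle (SD, n = 4 each; log2 fold change -0.30, 95% interval -0.88 to 0.27). Its groups overlapped, dexamethasone 4 being the lowest library at 8.404.
The small subunits at the ends of the range were Uqcrb, with 6.16 ± 2.90 FPKM with dexamethasone and 9.81 ± 4.52 FPKM with vehicle (SD, n = 4 each; log2 fold change -0.61, limma adjusted p = 0.28), and the most abundant, Uqcrq, with 52.7 ± 24.1 FPKM with dexamethasone and 55.0 ± 11.8 FPKM with vehicle (SD, n = 4 each; log2 fold change -0.15).

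Complex IV, cytochrome c oxidase, has catalytic subunits encoded by mitochondrial DNA and a set of nuclear subunits around them, several of which come in tissue isoforms. Of the 18 genes 11 were tested and 0 passed, with medians of -0.20 as deposited and 0.20 after scaling.
Cox4i1, the general isoform of subunit 4, had 65.8, 61.8, 58.5 and 46.5 FPKM with dexamethasone, against 61.9, 64.4, 88.1 and 55.7 FPKM with vehicle. The ranges overlapped, with vehicle 3 the highest and dexamethasone 4 the lowest. The log2 fold change was -0.20 (95% interval -0.65 to 0.24) as deposited and 0.20 (-0.14 to 0.54) after scaling.
Cox5a averaged 27.2 ± 10.0 FPKM with dexamethasone and 34.3 ± 3.95 FPKM with vehicle (SD, n = 4 each; log2 fold change -0.40, and -0.00 after scaling). Cox6c had the lowest fold change of the complex, with 72.2, 42.0, 55.5 and 30.1 FPKM with dexamethasone against 78.1, 63.8, 68.2 and 73.4 FPKM with vehicle. Dexamethasone 1 lay inside the vehicle range, and the log2 fold change was -0.56 (limma adjusted p = 0.16) as deposited and -0.16 after scaling.
Cox7b had the highest, with 49.4, 24.96, 19.99 and 12.8 FPKM with dexamethasone against 23.8, 17.3, 22.1 and 13.6 FPKM with vehicle. Dexamethasone 1 stood far above the other 7 libraries while dexamethasone 4 was below them all. Its log2 fold change was 0.33 (SE 0.34, limma adjusted p = 0.55) as deposited and 0.72 (SE 0.28, adjusted p = 0.17) after scaling.
Cox8a, the general form of subunit 8, was at 46.2, 39.2, 45.6 and 41.9 FPKM with dexamethasone against 44.5, 42.9, 43.5 and 26.2 FPKM with vehicle. It overlapped as deposited and was apart after scaling, at log2 fold changes of 0.16 and 0.57 (limma adjusted p = 0.09 after scaling). Cox8a passed on scaled fragment counts (0.60, adjusted p = 0.044) and after scaling without dexamethasone 2 (0.69, adjusted p = 0.049).

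The isoforms known from other tissues were listed at or close to 0. Cox6a2 and Cox8b, the heart and muscle forms, Cox4i2, the lung form, and the testis forms Cox7b2 and Cox8c were listed at 0 in all 8 libraries. Cox7a1, another muscle form, was above 0 only in dexamethasone 1 (0.796 FPKM) and 3 (1.94 FPKM) and vehicle 2 (0.804 FPKM), and Cox6b2, a testis form, only in dexamethasone 3 (0.729 FPKM) and vehicle 1 (0.392 FPKM). None of these 7 could be tested. Ndufa4l2, a paralogue of Ndufa4 that is no stable subunit of the chain, was above 0 in dexamethasone 2 (0.423 FPKM) and in vehicle 2 (0.443 FPKM) and 3 (0.156 FPKM). A listed 0 is not the same as no expression in this table. Atp5g2, 1 of the genes for the c ring of complex V, was listed at 0 throughout, and so was the mitochondrially encoded mt-Co1, the catalytic subunit of complex IV.

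Complex V makes ATP in its F1 head, which is joined to the proton channel by a rotating central stalk and held by a peripheral stalk. Of the 18 genes 15 were tested, with medians of -0.32 as deposited and 0.07 after scaling, and Atp5d was the 1 gene of the chain that passed, after scaling.
Atp5d encodes the delta subunit of the central stalk and had 36.2, 26.4, 23.6 and 23.2 FPKM with dexamethasone, against 24.9, 23.2, 23.1 and 13.9 FPKM with vehicle. As deposited dexamethasone 3 and 4 lay inside the vehicle range; after scaling all 4 dexamethasone libraries were above all 4 vehicle libraries. Dexamethasone minus vehicle, the log2 difference was 0.36 (SE 0.23, limma adjusted p = 0.34) as deposited and 0.76 (SE 0.18, adjusted p = 0.03) after scaling.
With 1 library left out it held in 3 of 8 fits (without dexamethasone 2, dexamethasone 3 or vehicle 1) and was lost in the other 5 (without dexamethasone 1, dexamethasone 4, vehicle 2, vehicle 3 or vehicle 4), with limma adjusted p for Atp5d from 0.032 to 0.086 and log2 fold changes from 0.65 to 0.84. It was also called under quantile normalization (0.72, adjusted p = 0.029) and on scaled fragment counts (0.79, adjusted p = 0.011), but not when rescaled outside Lars2 (0.64, adjusted p = 0.08), and in 4 of 15 fits with all 8 libraries beside the deposited one. The locus listed for Atp5d spans 93.5 times the width of the annotated gene and is shared with Ndufs7, a core subunit of complex I that averaged 18.9 ± 5.01 FPKM with dexamethasone and 20.6 ± 3.07 FPKM with vehicle (SD, n = 4 each). How fragments were divided within such merged loci is not given in the sources used here.

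Atp5b, the catalytic beta subunit, was the most abundant gene of the set, with 177.8, 173.2, 161.8 and 83.2 FPKM with dexamethasone, against 228.4, 141.4, 130.6 and 108.6 FPKM with vehicle. Dexamethasone 1 to 3 lay between vehicle 1 and vehicle 2, and dexamethasone 4 was the lowest of all. The log2 fold change was -0.04 (95% interval -0.65 to 0.58) as deposited and 0.37 (-0.08 to 0.83) after scaling.
Atp5f1 encodes subunit b of the peripheral stalk and had 8.57, 13.1, 11.5 and 7.23 FPKM with dexamethasone, against 16.3, 16.7, 14.5 and 15.04 FPKM with vehicle. All 4 dexamethasone libraries were below all 4 vehicle libraries. Its unadjusted p of 0.014 was the smallest of the chain as deposited (log2 fold change -0.61, SE 0.22, limma adjusted p = 0.089), and after scaling the log2 fold change was -0.23 (adjusted p = 0.46) with groups that overlapped.
Atp5j, coupling factor 6 of the same stalk, averaged 37.4 ± 9.41 FPKM with dexamethasone and 54.3 ± 10.3 FPKM with vehicle (SD, n = 4 each; log2 fold change -0.54, limma adjusted p = 0.15), and Atp5a1, the alpha subunit of the head, 58.4 ± 14.4 FPKM with dexamethasone and 65.0 ± 7.42 FPKM with vehicle (SD, n = 4 each; log2 fold change -0.18, adjusted p = 0.62).

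Of the 85 matches 5 are no subunits of the chain: Atp5s and Atp5sl, which are assembly-related or of other function, Atp5l-ps1, annotated as a processed pseudogene, Ndufa4l2, and Cox7a2l, a factor of supercomplex assembly. Without them 80 genes remained, 72 of them tested, and the calls were the same, 0 higher and 0 lower as deposited and 1 higher and 0 lower after scaling. In all, 7 of the 85 were listed at 0 in every library, and 4 more (Ndufa4l2, Cox6b2, Cox7a1 and Atp5s) did not reach 0.5 FPKM in 4 libraries.

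Mean FPKM of the tested genes ran from 1.78 to 150.6 with a median of 16.2, against a median of 2.85 over all genes tested, and the group means of the 74 genes were correlated across genes (Pearson r = 0.973, Spearman rho = 0.967), genes of the same libraries that are no independent replicates. Summed over the 85 genes, FPKM was 1936, 1678, 1645 and 1013 with dexamethasone, against 2053, 1760, 1923 and 1551 with vehicle. The ranges overlapped and dexamethasone 4 was the lowest. The complexes, grouped by symbol with Ndufa4 (mean 77.8 FPKM with dexamethasone, 87.8 FPKM with vehicle) under complex I, had these shares of the sum. Complex I supplied 31.3 ± 1.41% of it with dexamethasone and 32.4 ± 1.09% with vehicle (SD, n = 4 each), complex II 4.71 ± 0.50% with dexamethasone and 5.21 ± 0.37% with vehicle, complex III 12.1 ± 1.24% with dexamethasone and 12.3 ± 0.44% with vehicle, complex IV 21.1 ± 1.17% with dexamethasone and 20.2 ± 1.02% with vehicle, and complex V 30.7 ± 1.72% with dexamethasone and 29.8 ± 2.05% with vehicle.

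**Figure D3:**
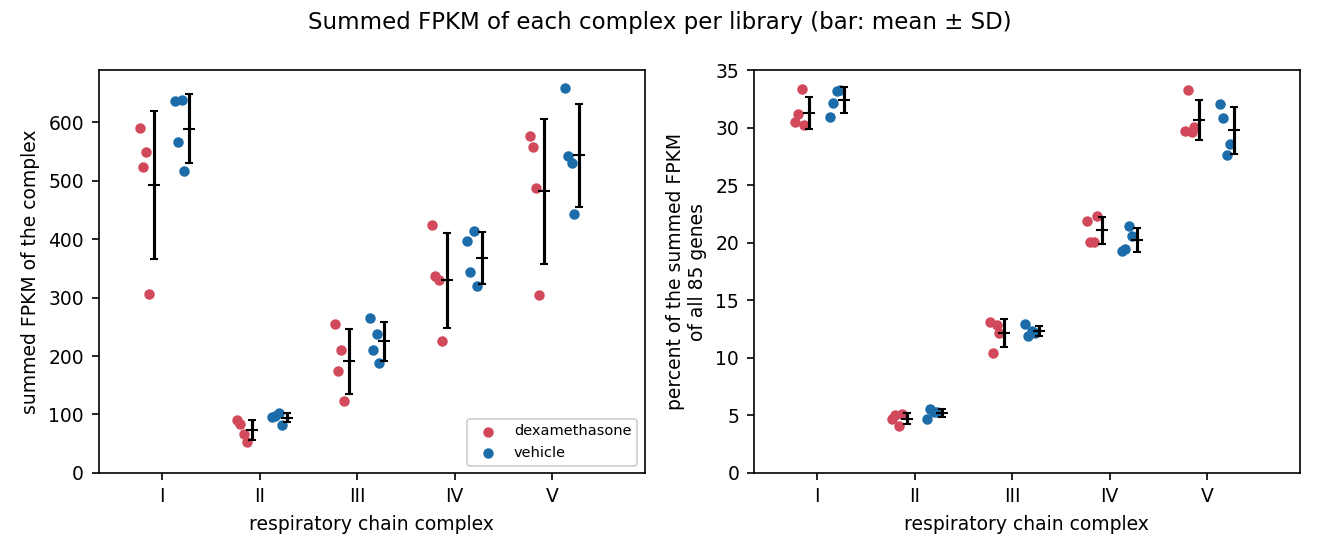
Summed FPKM of each complex in each library (left) and as a percent of the sum over all 85 genes (right), dexamethasone in red and vehicle in blue, with mean ± SD (n = 4). The sums overlap between the groups in every complex, the lowest library being dexamethasone 4 in each, and the shares overlap as well.

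Dexamethasone 4, the shallowest library and the one with the largest Lars2 share, was the lowest of the 8 for 57 of the 74 tested genes as deposited and for 21 after scaling. The median of the subunit genes, against the vehicle mean, was 0.06, -0.11, -0.21 and -0.87 in dexamethasone 1 to 4, against 0.14, -0.03, 0.09 and -0.21 in vehicle 1 to 4. The same median over all genes tested was -0.21, -0.13, -0.28 and -0.53 in dexamethasone 1 to 4. Over all genes it was 0.05, 0.09, 0.02 and -0.16 in vehicle 1 to 4. With dexamethasone, subunit genes thus lay above the median gene in library 1, slightly above it in 2 and 3, and below it in 4. Without dexamethasone 4 the median log2 fold change of the subunit genes was -0.06, against -0.20 for all genes, and 0.21 after scaling, against -0.00 for all genes. Whether depth or the Lars2 share has a part in the low values of this library was not tested.

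**Figure D4:**
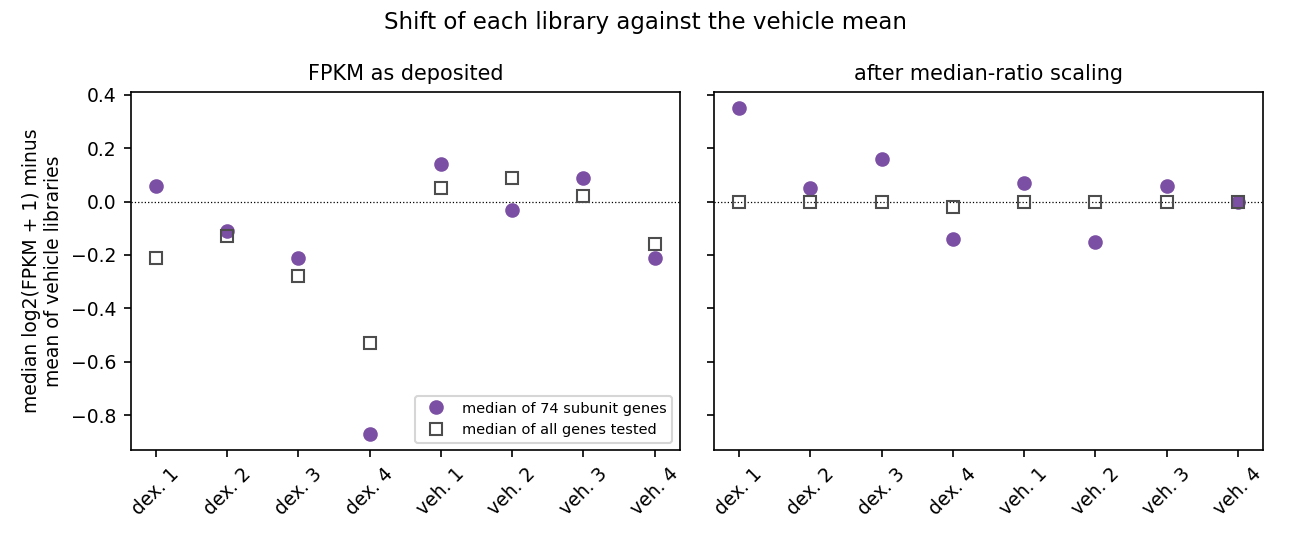
Median of log2(FPKM + 1) in each library minus the mean of the vehicle libraries, over the 74 tested subunit genes (filled circles) and over all genes tested (open squares), as deposited on the left and after median-ratio scaling on the right. Dexamethasone 4 stands at -0.87 for the subunit genes as deposited and at -0.14 after scaling, when dexamethasone 1 is the highest at 0.35.

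Subunit mRNAs are short, and 63 of the 74 fell into the shortest of 5 equal bins of length implied by the table. Over all genes the median log2 fold change as deposited was between -0.29 and -0.27 in each bin. The 63 subunit genes of the shortest bin had a median of -0.27. The other bins held too few subunit genes to show whether their fold changes run with length. Listed loci wider than 2 times the annotated gene, which hold neighbouring genes as well, concerned 20 tested subunit genes, with a median of -0.34 as deposited and 0.06 after scaling, against -0.29 and 0.08 for the other 54. This split was added after the values had been seen.

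Promoter letters, which the choice by symbol did not use, were searched as a description. RefSeq promoters (GRCm38.p6, from 250 bases before to 50 after the start) were matched for 69 of the 85 genes, 63 of them tested, 3 under another symbol. Both strands were searched for NRF1 (GCGCATGCG), YY1 (AAGATGGCG), an ETS site as bound by GABP (CCGGAAGT) and an estrogen-related receptor site (TCAAGGTCA); a run of GCGCATGCGC matches NRF1 on both strands and was counted once per promoter. The NRF1 letters were present in 7 of 63 promoters (11.1%), against 1.95% of 27025 genes with a promoter and 4.31% of the 7742 of them that were tested here. The YY1 letters were present in 8 (12.7%, against 1.64% and 3.9%), the ETS letters in 5 (7.94%, against 4.31% and 9.73%) and the receptor letters in 2 (3.17%, against 0.466% and 0.375%). The glucocorticoid receptor palindrome core (ACANNNTGT) was in 0 of 63, against 7.9% and 5.17%. A match is a run of letters and no measured binding, and no match says only that these letters are not in the window.

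The matches to NRF1 are shown, in capitals, with up to 10 bases on either side and on the strand of the gene (a match on the other strand reads CGCATGCGC), because they mark the genes of several complexes that share a motif and can be set beside their fold changes. Of the 7, 6 start before the transcription start and that of Uqcrc1 after it.
Ndufa8 (chr2:36049329-36049357, minus strand): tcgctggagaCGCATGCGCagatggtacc
Ndufa11 (chr17:56717692-56717720, plus strand): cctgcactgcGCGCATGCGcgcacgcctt
Uqcr11 (chr10:80406808-80406836, minus strand): atcgccttcaCGCATGCGCtatacgtctg
Uqcrc1 (chr9:108936668-108936696, plus strand): actccgctctGCGCATGCGcagcgcggct
Cox6a1 (chr5:115349102-115349130, minus strand): caggaacgggGCGCATGCGcgctctcgct
Atp5k (chr5:108434431-108434459, minus strand): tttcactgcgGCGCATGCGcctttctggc
Atp5l (chr9:44920965-44920992, minus strand): aaccaataaCGCATGCGCatttccccca
The log2 fold changes of these genes had a median of -0.04 as deposited and 0.34 after scaling, against -0.29 and 0.07 for the 56 tested genes with a promoter and no match.

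The matches to YY1 are shown in the same way, because 7 of the 8 lie after the transcription start. There the letters ATG inside the motif fall among the first bases of the transcript. Atp5sl has 2 listed starts, its match lying at 26 from the start used here and at -53, before the start, from the other.
Ndufa9 (chr6:126849097-126849125, minus strand): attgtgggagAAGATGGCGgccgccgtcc
Ndufc1 (chr3:51408915-51408943, minus strand): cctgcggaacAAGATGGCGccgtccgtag
Ndufs4 (chr13:114388045-114388069, minus strand): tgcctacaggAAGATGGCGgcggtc
Ndufs6 (chr13:73328433-73328459, minus strand): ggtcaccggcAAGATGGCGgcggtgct
Ndufs7 (chr10:80249463-80249491, plus strand): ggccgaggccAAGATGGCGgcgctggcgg
Atp5j (chr16:84835046-84835074, minus strand): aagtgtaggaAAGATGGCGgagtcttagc
Atp5j2 (chr5:145191500-145191528, minus strand): ccaggacttcAAGATGGCGtcactcggtg
Atp5sl (chr7:25619430-25619458, plus strand): gttacctggcAAGATGGCGgcgcccagag
Their median log2 fold change was -0.42 as deposited and -0.05 after scaling, against -0.27 and 0.10 for the 55 without a match. With 7 and 8 genes these medians are descriptions with no test. Atp5d, the gene called after scaling, held none of the letters searched.

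Subunits and carriers that the choice by symbol leaves out gave no call. Of 6 further carriers and subunits (cytochromes c and c1, Ndufab1 and the electron transfer flavoprotein genes) 0 passed before or after scaling, with medians of -0.13 and 0.25. Cyc1, the cytochrome c1 of complex III, averaged 21.99 ± 3.56 FPKM with dexamethasone and 23.7 ± 1.71 FPKM with vehicle (SD, n = 4 each; log2 fold change -0.12, limma adjusted p = 0.72), and Ndufab1, the acyl carrier protein in complex I, 3.45 ± 2.16 FPKM with dexamethasone and 6.85 ± 3.23 FPKM with vehicle (SD, n = 4 each; log2 fold change -0.86, adjusted p = 0.13). Cycs, which encodes cytochrome c, was low in both groups, at 1.68 ± 1.47 FPKM with dexamethasone and 1.24 ± 0.67 FPKM with vehicle (SD, n = 4 each). Etfa, the alpha subunit of the electron transfer flavoprotein, had a log2 fold change of -0.36 (adjusted p = 0.28).
Of the 13 subunits encoded by mitochondrial DNA 8 could be tested, 0 passed before or after scaling, and their medians were -0.15 and 0.26. Mt-Co3 of complex IV averaged 6843 ± 641 FPKM with dexamethasone and 8118 ± 1227 FPKM with vehicle (SD, n = 4 each; log2 fold change -0.24, limma adjusted p = 0.45), and mt-Nd4 of complex I 2433 ± 321 FPKM with dexamethasone and 2805 ± 312 FPKM with vehicle (SD, n = 4 each; -0.21, adjusted p = 0.51). The nuclear sum was 6.75 ± 1.079% of the mitochondrially encoded sum with dexamethasone and 7.31 ± 1.73% with vehicle (SD, n = 4 each), and the ranges overlapped. Several mitochondrial genes, mt-Co1, mt-Nd3, mt-Nd4l and mt-Nd5, were listed at 0 throughout, so that sum is not complete.

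Assembly factors gave few calls. Over all genes tested, 9.22% were called as deposited, and 3.3% were higher and 3.03% lower after scaling. Of 15 complex I factors 0 passed before or after scaling (medians -0.26 and -0.02), with Timmdc1, which helps build the membrane arm, at a log2 fold change of -0.58 (limma adjusted p = 0.14). Of 26 factors of complexes II to V, 0 passed as deposited and 1 was higher after scaling (medians -0.17 and 0.06).
That gene was Coa6, which helps deliver copper to complex IV, with 9.21, 8.72, 5.67 and 3.26 FPKM with dexamethasone against 2.82, 5.30, 1.91 and 3.24 FPKM with vehicle. Dexamethasone 1 to 3 lay above every vehicle library and dexamethasone 4 within their range. Its log2 fold change was 0.81 (limma adjusted p = 0.12) as deposited and 1.13 (SE 0.26, adjusted p = 0.025) after scaling, where the call held in 3 of 8 fits with a library left out (without dexamethasone 4, vehicle 2 or vehicle 4).

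Coenzyme Q is the carrier between complexes I, II and III. Of 13 tested genes of its synthesis and binding, 0 were higher and 2 lower as deposited. After scaling 1 was higher and 1 lower, and the medians were -0.38 before and -0.08 after. Of all genes tested, 1.37% were higher and 7.85% lower as deposited, and 3.3% and 3.03% after scaling.
Coq10b, a coenzyme Q binding protein, had 4.76, 2.98, 3.64 and 1.43 FPKM with dexamethasone, against 7.54, 9.14, 9.61 and 6.74 FPKM with vehicle. All dexamethasone libraries were below all vehicle libraries. It fell as deposited (log2 fold change -1.19, SE 0.27, limma adjusted p = 0.015) and after scaling (-0.87, adjusted p = 0.039). Leaving out vehicle 2 as deposited gave an adjusted p of 0.053 for Coq10b, and after scaling the call held in 1 of 8 such fits, that without dexamethasone 1. On scaled fragment counts Coq10b had a log2 fold change of -0.78 (adjusted p = 0.05) and did not pass.
Adck3 (also Coq8a), an atypical kinase of the same pathway, had 23.8, 16.5, 22.3 and 21.1 FPKM with dexamethasone, against 14.3, 11.5, 15.7 and 9.97 FPKM with vehicle. Its groups were apart as deposited. Dexamethasone minus vehicle, the log2 difference was 0.67 (limma adjusted p = 0.065) as deposited and 1.06 (SE 0.21, adjusted p = 0.012) after scaling, where it rose in 8 of 8 fits with a library left out.
Coq2, the prenyltransferase that joins ring and tail, averaged 1.97 ± 0.85 FPKM with dexamethasone and 4.64 ± 1.36 FPKM with vehicle (SD, n = 4 each). It fell as deposited (log2 fold change -0.93, limma adjusted p = 0.046) but did not pass after scaling (-0.64, adjusted p = 0.12), and as deposited the call held in 2 of 8 fits with a library left out (without dexamethasone 1 or vehicle 4).

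Among 17 genes of the citric acid cycle and pyruvate dehydrogenase, which supply the chain with NADH, 0 were higher and 1 lower as deposited. After scaling 1 was higher and 0 lower, and the medians were -0.32 before and 0.06 after. The shares of all genes were 1.37% higher and 7.85% lower as deposited, and 3.3% and 3.03% after scaling. The lower gene was Dlat, the acetyltransferase of pyruvate dehydrogenase, with 4.17, 5.94, 3.48 and 3.18 FPKM with dexamethasone against 10.6, 10.1, 10.5 and 4.89 FPKM with vehicle (log2 fold change -0.93, limma adjusted p = 0.047). Vehicle 4 lay inside the dexamethasone range. Dlat did not pass after scaling (-0.58, adjusted p = 0.13), and as deposited it held in 2 of 8 fits with a library left out (without dexamethasone 2 or vehicle 4).
The higher gene after scaling was Pdha1, the alpha subunit of the first enzyme of that complex (log2 fold change 0.77, limma adjusted p = 0.016; 0.39 and 0.30 as deposited), named after its values were seen. Sucla2 and Fh1, succinyl-CoA ligase and fumarase, did not overlap between the groups as deposited but did not pass the test (-0.92, adjusted p = 0.066, and -0.87, adjusted p = 0.076). Transport of nucleotides and phosphate gave 0 calls of 6 tested before or after scaling (medians -0.21 and 0.13), the phosphate carrier Slc25a3 having a log2 fold change of -0.39 (adjusted p = 0.31), the outer membrane channel Vdac1 -0.28 (adjusted p = 0.65) and its relative Vdac2 -0.23 (adjusted p = 0.53).

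Of 15 regulators of the chain's genes tested, 0 were higher and 2 lower as deposited. After scaling 1 was higher and 2 lower, and the medians were -0.12 before and 0.22 after. The shares of all genes were 1.37% higher and 7.85% lower as deposited, and 3.3% and 3.03% after scaling.
Ppargc1b, which encodes the coactivator PGC-1beta, had 1.19, 1.36, 1.99 and 1.21 FPKM with dexamethasone, against 4.12, 3.50, 4.36 and 3.41 FPKM with vehicle. All dexamethasone libraries were well below all vehicle libraries. It fell as deposited (log2 fold change -1.0, SE 0.21, limma adjusted p = 0.011, and in 8 of 8 fits with a library left out) and after scaling (-0.71, adjusted p = 0.048, and in 1 of 8 such fits, that without dexamethasone 3).
Polg2, the accessory subunit of the mitochondrial DNA polymerase, had 0.581, 0.939, 0.310 and 1.05 FPKM with dexamethasone, against 2.31, 2.61, 2.55 and 3.07 FPKM with vehicle. The groups were apart. It fell as deposited (log2 fold change -1.10, SE 0.21, limma adjusted p = 0.0075, and in 8 of 8 fits with a library left out) and after scaling (-0.86, adjusted p = 0.047, and in 1 of 8 such fits, that without dexamethasone 4). On scaled fragment counts Polg2 did not pass (-0.70, adjusted p = 0.36).
Ppargc1a, which encodes PGC-1alpha and is known as a glucocorticoid-responsive gene of fasting liver, had 0.878, 2.96, 1.32 and 2.26 FPKM with dexamethasone, against 0.461, 0.615, 0.472 and 0.894 FPKM with vehicle. The groups overlapped only through dexamethasone 1 and vehicle 4, and the test was not passed (log2 fold change 0.77, limma adjusted p = 0.065; 0.98 and 0.051 after scaling). With all 8 libraries Ppargc1a passed in 3 of 14 other fits, with adjusted p from 0.011 to 0.13 over them, and without dexamethasone 1 it passed as deposited (0.95, adjusted p = 0.035) and after scaling (1.19, adjusted p = 0.02).
Esrra, the estrogen-related receptor alpha, averaged 8.38 ± 1.93 FPKM with dexamethasone and 5.80 ± 1.22 FPKM with vehicle (SD, n = 4 each). It did not pass as deposited (log2 fold change 0.46, limma adjusted p = 0.22) and rose after scaling (0.82, adjusted p = 0.043), a call that held in 1 of 8 fits with a library left out, that without dexamethasone 3. Tfam, the packaging and transcription factor of mitochondrial DNA, averaged 3.49 ± 2.27 FPKM with dexamethasone and 4.53 ± 2.58 FPKM with vehicle (SD, n = 4 each), with an interval of the log2 fold change from -1.23 to 0.55.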

How the data were processed

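Per the labels, total liver RNA was depleted of ribosomal RNA and sequenced from stranded libraries. The submitters' processing notes name CASAVA 1.8, TopHat2 and the human build hg19, although the gene identifiers are those of mouse; the counting tool is not given in the sources used here. The authors deposited FPKM values per library and, under the name of counts, a signal in which each library's fragments appear multiplied by a constant (93.2 to 95.4% of low values were whole multiples of one step, tolerance 0.01), so count-based tests were not used. Listed lengths, a column of another kind deposited by the authors, equal the locus width. All 85 gene identifiers matched GENCODE M21 (GRCm38).

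The 10221 genes with 4 or more libraries at or above 0.5 FPKM were fitted with limma 3.58.1 (R 4.3.3) on log2(FPKM + 1), with a mean-variance trend and treatment as the only term, two-sided, adjusted by Benjamini-Hochberg over all genes tested, threshold 0.05. Median-ratio scaling used genes above 0 in all 8 libraries; it was first run over the tested genes, and the basis was changed after that output was seen. Both are given. The fit was tested on simulated data made from median-ratio scaled values, with deviations shuffled between libraries. That test did not cover the shifts between libraries in the deposited values. The genes, lists and tests were chosen with earlier results of these data known. Named genes were those past the threshold in either scale, the highest in level and the lowest and highest in fold change of each complex, core subunits (1 of them not reported here, though counted among the genes tested), tissue isoforms, and up to 3 of smallest p in each other list; Ndufb5, Sdhc, Cox8a, Atp5j, Atp5a1, Ndufs7 and Pdha1 joined them once their values were known. The splits by level and locus width, the per-library medians, the fit on scaled fragment counts and the promoter shares among tested genes were chosen after values had been seen. Both groups use the same replicate numbers, and the sample titles give no pairing by number, so the main fit used no block.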

Additional observations from a re-analysis of the deposited data

Results flagged for a closer look

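In 6 of 110 groups of 4 libraries checked, 1 library stood apart from the other 3 (Dixon's gap test at the 95% level), and chance gives about 1 in 20 groups. Dexamethasone 4 stood apart as low for Ndufa4 (47.0 FPKM), Sdhd (8.89 FPKM) and Atp5b (83.2 FPKM), subunits of different complexes. Vehicle 4 stood apart as low for Atp5d (13.9 FPKM) and Dlat (4.89 FPKM). Vehicle 1 stood apart as high for Vdac1 (21.6 FPKM).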

How the results depend on the processing

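The count of subunit genes called lower was 0 with all 8 libraries under each of 15 other settings. The count called higher was 2 under quantile normalization, 1 under median-ratio scaling on either basis, and 3 on scaled fragment counts, and 0 under the remaining settings. Of all genes, 3.28% were higher and 3.28% lower under quantile normalization, and 3.3% and 3.03% under median-ratio scaling. On scaled fragment counts these shares were 5.26% and 5.26%. The median log2 fold change of the subunit genes was 0.06 under quantile normalization, 0.08 under median-ratio scaling and 0.13 on scaled fragment counts. It was -0.04 when rescaled outside Lars2, where all genes had -0.10, and -0.15 with array weights, where all genes had -0.26. The fragment counts and the second scaling basis, over tested genes, were chosen after seeing the data; on that basis Atp5d had 0.76 (limma adjusted p = 0.029). With 1 library left out, with or without scaling, 0 to 1 subunit genes were lower and 0 to 3 higher, and their median was -0.40 to 0.21. The 1 was lower as deposited without vehicle 1, where 4.14% of all genes were lower. The 3 were higher after scaling without dexamethasone 2, where 2.68% of all genes were higher. With the replicate number as a block, 0 subunit genes were higher and 0 lower and their median was -0.29, and 0.08 with scaling as well. Under the block with scaling Atp5d (limma adjusted p = 0.065), Ppargc1b (0.081), Polg2 (0.051), Coq10b (0.07), Coq2 (0.15) and Dlat (0.19) did not pass and Ppargc1a did (0.043). Deviations of same-numbered libraries from their group means had correlations of 0.02, -0.02, -0.01 and -0.00. These values show no sign of pairing by number but do not settle whether the libraries were paired. On scaled fragment counts Polg2, Coq10b, Coq2 and Dlat, lower as deposited, did not pass. Planned edgeR and DESeq2 fits were not run, since the deposited counts were not whole.

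Of 1425 values of 46 named genes under 31 settings, 208 changed sign, 0 of them past the threshold before or after, 70 lost a call and 51 gained one. Log2 fold changes that turned positive under median-ratio scaling, with or without the block, were Ndufa4 0.20, Sdhb 0.21, Uqcrq 0.26, Cox4i1 0.20, Atp5b 0.37, Ndufv1 0.19, Uqcrfs1 0.08, Etfa 0.04, Cyc1 0.28, Slc25a3 0.01, Vdac2 0.14, Vdac1 0.09, mt-Co3 0.18 and mt-Nd4 0.21; over tested genes they were the same to 2 decimals except Cox4i1 0.21, Atp5b 0.38 and Slc25a3 0.02. Under quantile normalization they were Ndufa4 0.19, Sdhb 0.19, Uqcrq 0.26, Cox4i1 0.18, Atp5b 0.36, Ndufv1 0.17, Uqcrfs1 0.05, Etfa 0.02, Cyc1 0.28, Slc25a3 0.01, Vdac2 0.10, Vdac1 0.07, mt-Co3 0.12 and mt-Nd4 0.05. Rescaled outside Lars2 they were Ndufa4 0.07, Sdhb 0.10, Uqcrq 0.14, Cox4i1 0.08, Atp5b 0.25, Ndufv1 0.07, Cyc1 0.16, Vdac2 0.03, mt-Co3 0.05 and mt-Nd4 0.08. On scaled fragment counts they were Ndufa4 0.22, Sdhb 0.18, Uqcrq 0.33, Cox4i1 0.32, Atp5b 0.28, Ndufv1 0.07, Uqcrfs1 0.21, Cox5a 0.02, Etfa 0.01, Cyc1 0.31, Slc25a3 0.03, mt-Co3 0.28, mt-Nd4 0.35 and Tfam 0.10. With array weights, the values of changed sign were Uqcrq 0.07, Atp5b 0.10 and Cycs -0.06. With 1 library left out, genes that changed sign ranged over Atp5b -0.18 to 0.56, Cox4i1 -0.29 to 0.33, Cox5a -0.58 to 0.17, Cox7b -0.01 to 0.88, Cyc1 -0.18 to 0.39, Cycs -0.17 to 0.68, Etfa -0.45 to 0.10, Foxred1 -0.64 to 0.07, Ndufa4 -0.31 to 0.30, Ndufv1 -0.40 to 0.31, Sdha -0.59 to 0.08, Sdhb -0.29 to 0.28, Sdhd -0.58 to 0.02, Slc25a3 -0.58 to 0.10, Tfam -0.62 to 0.24, Uqcrfs1 -0.44 to 0.23, Uqcrq -0.40 to 0.55, Vdac1 -0.53 to 0.39, Vdac2 -0.34 to 0.25, mt-Atp6 -0.77 to 0.06, mt-Co3 -0.35 to 0.28, mt-Nd4 -0.29 to 0.33. These ranges pool the fits as deposited and after scaling. Cox4i1 was at -0.29 to -0.07 as deposited and at 0.15 to 0.33 after scaling, and Cyc1 at -0.18 to -0.02 and 0.22 to 0.39. Leaving a library out thus did not change their sign within either scale. Atp5b did change sign within the deposited values, from -0.18 to 0.22. The cause of the sign changes was not tested. Depth limits the low genes most, a median subunit gene having 21 fragments in dexamethasone 4.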
